A study of Mus musculus with 8 samples.

Results

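Genes for the proteins of the cytosolic ribosome were followed through every cell type of isolated mouse islets, with and without an inhibitor of focal adhesion kinase. They were taken by symbol as the genes named *Rpl* or *Rps* and a number together with *Rplp0*, *Rplp1*, *Rplp2* and *Rpsa*, leaving out the *Rps6k* kinases and the 3 pseudogenes whose symbols end in -ps and a number. This gave 84 of the 19945 genes in the count table. Of these, 46 were core proteins of the large subunit, 31 were core proteins of the small subunit and 6 were paralogs of a core gene (*Rps27l*, *Rpl36al*, *Rpl22l1*, *Rpl7l1*, *Rps27rt* and *Rpl3l*). The last, *Rps19bp1*, encodes a protein that binds a ribosomal protein and only resembles one by name.

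The ribosome translates messenger RNA, with a small subunit that reads the message and a large subunit that joins amino acids. Each subunit is an RNA scaffold with many small proteins, most of them used in equal number, and their messengers are usually made in parallel. Such messengers typically begin with a terminal oligopyrimidine (TOP) tract, a C followed by further pyrimidines, through which mTOR and LARP1 set their translation. Pancreatic acinar cells and β-cells are secretory cells that fill their RNA pool with the messengers of enzymes and insulin, whereas lymphocytes in single-cell data often give ribosomal protein messengers as a large part of the total.

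The islets came from wild-type mice given vehicle or FAKi (PF562271, an oral small-molecule inhibitor of focal adhesion kinase) at 50 mg/kg by gavage, 2 doses a day for 3 weeks. They were taken 10 days after the last dose, and the islets of 5 mice were pooled for each condition. There was 1 droplet library of 3′ messenger ends per condition (3776 vehicle and 3183 FAKi cells, 59514118 and 57836783 UMIs), and each was run on 4 lanes, which are the deposited samples. A difference between the mice, the libraries and the treatments therefore cannot be told apart, no test across samples was possible, and the 95% intervals below cover counting error only.

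The authors' annotation placed the cells in 12 classes. In the vehicle library the β, α, δ, ductal, endothelial, macrophage, T and B cell marker lists each summed highest in the class of that name. The acinar list was highest in acinar cluster 2 (375190 CPM), before acinar cluster 1 (253587 CPM). The mesenchymal list was at 15905 CPM in fibroblasts and 14321 CPM in pericytes, and no list was made for either of these classes alone. The β-cell list also reached 157425 CPM in acinar cluster 1 and 115125 CPM in macrophages of that library, against 588963 CPM in its β-cells. Barcodes were shared between the libraries by 4 cells. The doublet caller marked 68 vehicle and 57 FAKi cells. The classes differed widely in depth: the median vehicle cell of acinar cluster 1 held 1480 UMIs and the median β-cell 30792.5.

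Sequences of 2 kinds bear on the results. The first is the start of the messenger, shown for *Rpl38* and *Rps21*, which stood lower in the FAKi library in every class compared, for *Rpl26*, which stood higher in all of them, and for *Rps27* and *Rps27l*, which differed most between classes. Each line gives 15 bases before and 15 from the RefSeq start on GRCm38.p6, in the direction of the messenger, with the longest run of C and T in capitals. *Rps21* and *Rps27l* each have a further annotated start that is not shown.
Rpl38 (chr11:114668565-114668594, plus strand): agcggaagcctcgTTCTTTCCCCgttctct
Rps21 (chr2:180257364-180257393, plus strand): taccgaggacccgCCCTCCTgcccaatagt
Rps27 (chr3:90213634-90213663, minus strand): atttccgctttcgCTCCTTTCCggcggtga
Rps27l (chr9:66946071-66946100, plus strand): ccaCTCCTCCCCgccgcctctatcccggaa
Rpl26 (chr11:68901551-68901580, plus strand): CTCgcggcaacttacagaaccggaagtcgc

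A start of C followed by 4 pyrimidines on the messenger's strand was found for 14 of the 64 genes of the set with an entry (21.9%) and for 3.01% of all 27025 genes of the promoter table. A run of at least 8 pyrimidines within 15 bases of the start was found for 42.2% and 13.9%. *Rpl38*, *Rps21* and *Rps27* held the first of these at the start shown, and the *Rps27l* and *Rpl26* starts shown did not. The starts of *Rps28* and *Rpl36a*, which also stood lower in the FAKi library in every class compared, did not hold it either. The GENCODE annotation puts the first base of *Rpl26* at 68901583, past the end of the stretch shown, and that of *Rpl38* at 114668524, before it. Starts in an annotation can lie some bases from those used in islet cells, so a missing match says only that these letters are not at the annotated start.

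The second is the coding sequence of the pair *Rps27* and *Rps27l*, which encode alternative forms of the same small-subunit protein. *Rps27* lies at chr3:90212522-90213651 on the minus strand and *Rps27l* at chr9:66946086-66949516 on the plus strand (GRCm38). Both have 255 coding bases, of which 61 differ (76.1% identity), and the bases that differ are in capitals below.
Rps27: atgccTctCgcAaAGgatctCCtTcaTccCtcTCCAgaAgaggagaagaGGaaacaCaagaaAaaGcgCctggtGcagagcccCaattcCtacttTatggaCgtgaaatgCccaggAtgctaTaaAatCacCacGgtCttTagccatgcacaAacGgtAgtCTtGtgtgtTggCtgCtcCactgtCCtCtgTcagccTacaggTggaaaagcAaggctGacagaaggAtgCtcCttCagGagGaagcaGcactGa
Rps27l: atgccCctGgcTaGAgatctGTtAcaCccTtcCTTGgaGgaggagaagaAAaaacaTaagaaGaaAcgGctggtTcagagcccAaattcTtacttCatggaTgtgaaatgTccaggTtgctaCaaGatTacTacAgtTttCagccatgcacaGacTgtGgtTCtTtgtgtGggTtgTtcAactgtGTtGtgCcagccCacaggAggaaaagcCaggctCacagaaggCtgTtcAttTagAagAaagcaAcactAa
The differing bases are spread along the whole coding sequence. The third copy, *Rps27rt*, is identical to *Rps27* over its 255 coding bases, and its counts are uncertain.

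Ribosomal protein messengers made up 6.62% of all UMIs of the vehicle library and 5.08% of those of the FAKi library. The libraries also differed in the cells they held. Vehicle and FAKi had 113 and 9 B cells, 168 and 28 T cells, 498 and 156 ductal cells, and 1076 and 1336 β-cells. The part of cell composition in this gap was not tested. The ribosomal protein share differed by several fold between cell types. In the vehicle library it was highest in B cells at 26.6% (95% interval 26.5 to 26.7, 113 cells) and in T cells at 20.9%. Stromal, macrophage, duct and vessel classes lay between, with 15.1% in fibroblasts, 13.5% in macrophages, 11.9% in ductal cells, 10.5% in endothelial cells and 7.49% in pericytes. Among endocrine cells the share was 9.21% in α-cells, 7.72% in δ-cells and 3.12% in β-cells. Acinar cluster 2 had 4.58% and acinar cluster 1 had 4.30%. The B cell share was 8.53 times that of β-cells (8.48 to 8.57).

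**Figure D1:**
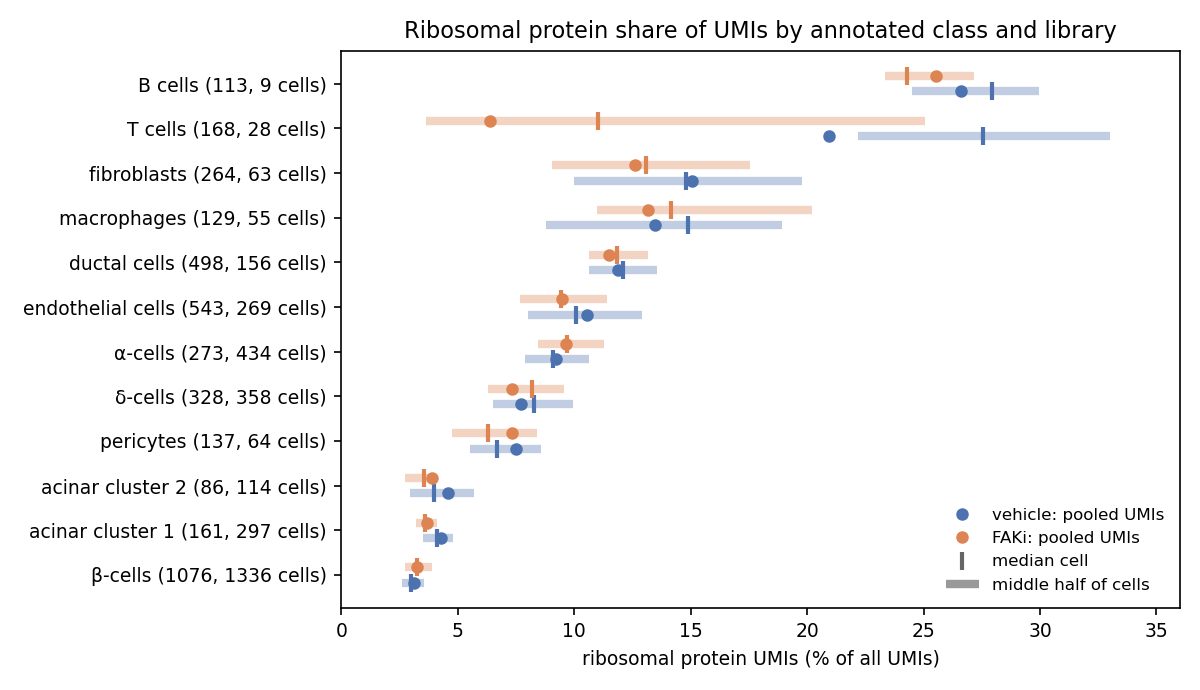
Ribosomal protein UMIs as percent of all UMIs (x axis) in the 12 annotated classes (y axis, with the number of vehicle and FAKi cells). Points are pooled UMIs of a class and library, ticks the median cell and bars the interquartile range over cells. β-cells and both acinar clusters lie under 5% and vehicle lymphocytes above 20%, and the FAKi T cells spread from 3.64% to 25.0% between quartiles.

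The cells of each class varied around these values. In that order of vehicle classes, the interquartile ranges over cells of neighboring classes overlapped at every step but that from T cells (22.2% to 33.0%) to fibroblasts (9.98% to 19.8%). The order was similar in the FAKi library (Spearman rho 0.79 over 12 classes, which share the 2 libraries).

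The distance between classes depended on the messengers counted in the total. Insulin messengers took 55.2% of the UMIs of vehicle β-cells and 0.469% of those of B cells. The median B cell nevertheless held 1134 ribosomal protein UMIs and the median β-cell 916, out of totals of 4137 and 30792.5 UMIs. With the 20 most abundant genes of the data left out of the total (hormones, digestive enzymes and mitochondrial genes among them, none from the set), the share was 29.7% in B cells and 8.83% in β-cells. The ratio of B cells to β-cells was then 3.37. The same step raised α-cells to 15.9% and δ-cells to 13.9%, above the ductal cells at 13.3%. Both acinar clusters were then lowest, at 8.03% (cluster 1) and 7.43% (cluster 2).

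How many of the genes a cell showed at equal depth followed the order of the share of all UMIs. With the same total in every cell this number depends on that share, so it is not a separate result. After each cell was thinned to 1000 UMIs, the median vehicle B cell showed 72 of the 84 genes, the median ductal cell 59, the median α-cell 50, the median acinar cluster 2 cell 30 and the median β-cell 25. Cells with fewer UMIs were left out (26 vehicle cells of acinar cluster 1 and 13 β-cells). Without thinning, the medians were 79 in B cells, 80 in β-cells and 40 in acinar cluster 1.

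T cells of the FAKi library stood apart. Their share was 6.38%, against 20.9% in the vehicle library, and they were 28 cells in which insulin took 42.6% of the UMIs. Cells with at least 5% insulin UMIs numbered 12 of the 28, against 5 of 168 vehicle T cells. Without them the share was 21.1% (20.8 to 21.3, 16 cells) in the FAKi library and 23.9% (23.8 to 24.0, 163 cells) in the vehicle library. The FAKi B cells were 9 cells with a share of 25.5%. Neither lymphocyte class is compared between the libraries further.

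Within the set, core genes were unevenly counted. *Rpl13* was highest with 2.97% of the ribosomal protein UMIs (1737 CPM over all cells), followed by *Rps3a1* (2.36%), *Rpl19* (2.29%), *Rps24* (2.20%) and *Rpsa* (2.05%), the last known as the laminin receptor. The 5 lowest core genes were *Rpl29* (0.135%), *Rpl35* (0.358%), *Rpl31* (0.369%), *Rpl36a* (0.386%) and *Rpl23a* (0.523%). A UMI stands for 1 captured 3′ end whatever the messenger's length, but reads that also match pseudogenes can be lost, and ribosomal protein genes have many, so an order among genes is an order of UMI counts. Small-subunit genes gave 41.6% of the core UMIs in vehicle β-cells and 46.9% in vehicle B cells, and the other 10 vehicle classes lay from 41.5% to 46.4%.

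The part that a gene took of the ribosomal protein pool differed between classes, by less than 2-fold for most genes. Among the 79 genes with at least 100 UMIs in each class, the ratio of the highest to the lowest class had a median of 1.68, was under 1.5 for 20 genes and over 2 for 16. *Rpl17* varied least, from 1.73% to 2.01%. *Rpl6* (1.16% to 1.38%) and *Rpl30* (1.18% to 1.49%) followed it.

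**Figure D2:**
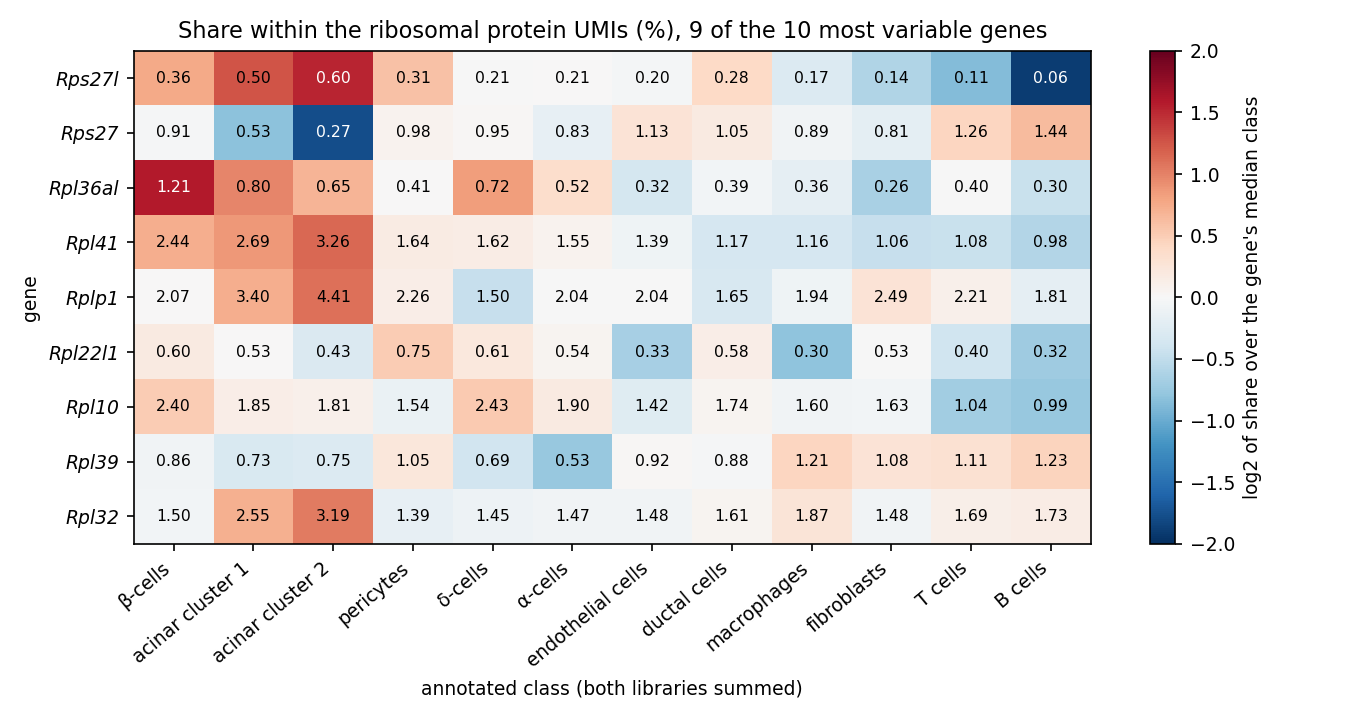
Share of 9 of the 10 most variable genes (y axis) within the ribosomal protein UMIs, printed as percent for each annotated class (x axis, both libraries summed, ordered by total share). Color gives the log2 of the share over the gene's median class, and the opposite patterns of *Rps27l* and *Rps27* and the high *Rpl36al* of β-cells stand out.

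*Rps27l* varied most. It made up 0.601% of the ribosomal protein UMIs in acinar cluster 2, 0.503% in acinar cluster 1, 0.356% in β-cells and 0.0563% in B cells. With both libraries summed, acinar cluster 2 thus had 10.7 times the share of B cells (8.69 to 13.2). The ratio was 9.75 in the vehicle library, with 113 B cells, and 6.14 in the FAKi library, with 9. *Rps27*, its partner, ran the other way, from 1.44% in B cells and 1.26% in T cells down to 0.527% in acinar cluster 1 and 0.274% in acinar cluster 2.

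As a share of the pair, *Rps27l* was the larger partner in acinar cluster 2, with 283 UMIs to 178 of *Rps27* in the vehicle library (61.4%, 56.8 to 65.9) and 426 to 145 in the FAKi library (74.6%, 70.8 to 78.1). The pair of acinar cluster 1 was near balance, with 51.6% (43.5 to 59.6) and 47.3% (41.3 to 53.4). β-cells had 27.3% and 28.7%. Vehicle T cells had 5.41% and vehicle B cells 3.15%. The highest value outside acinar cells was 30.7%, in the 28 FAKi T cells. Insulin was 0.641% and 0.859% of the UMIs of acinar cluster 2 (vehicle and FAKi), and 14.7% and 23.4% of those of acinar cluster 1. The part of β-cell RNA in the intermediate value of cluster 1 was not tested.

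*Rpl36al*, a paralog of *Rpl36a* with 87.9% identity over 321 coding bases, was highest in β-cells. It was 1.21% of the ribosomal protein UMIs there, 0.798% in acinar cluster 1, 0.720% in δ-cells, 0.649% in acinar cluster 2 and 0.517% in α-cells, and was lowest in fibroblasts at 0.256%. Of the pair, *Rpl36al* made up 78.7% (78.1 to 79.4) in vehicle β-cells, 67.1% in acinar cluster 1, 62.4% in δ-cells, 60.3% in acinar cluster 2, 55.6% in α-cells, 46.4% in ductal cells and 32.2% in fibroblasts. β-cell RNA found in other classes could add to their *Rpl36al*, and its part was not tested.

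*Rpl22l1*, the paralog that *Rpl22* is known to repress, varied less. It was highest in pericytes (0.746% of the ribosomal protein UMIs) and lowest in macrophages (0.302%), and made up between 32.1% (macrophages) and 57.7% (β-cells) of its pair over the vehicle classes. The remaining paralogs were rare: over all cells *Rpl7l1* had 3702 UMIs, *Rps27rt* 2102 and *Rpl3l*, a muscle form of *Rpl3*, 13. *Rps19bp1* had 2579.

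**Figure D3:**
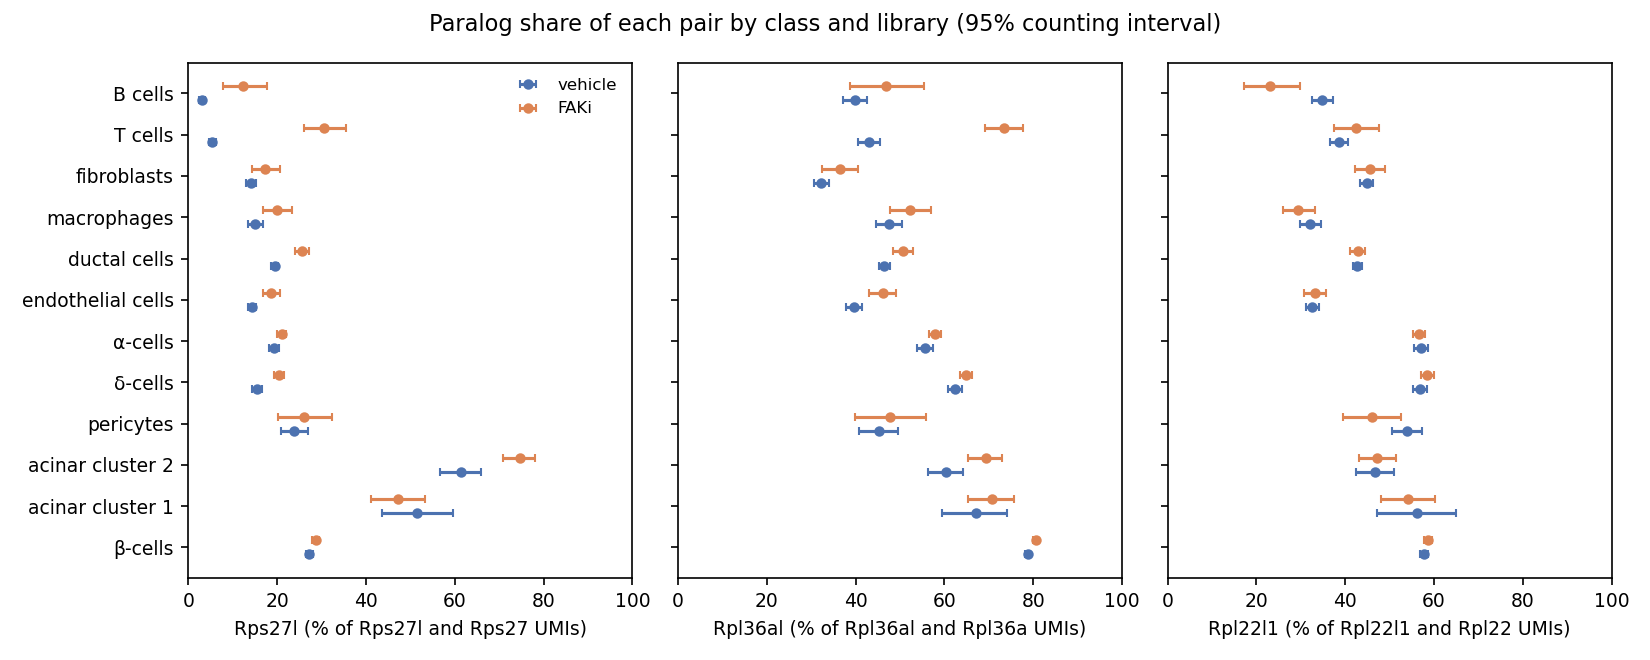
Share of the paralog in the UMIs of each pair (x axes, percent) by annotated class (y axis) and library, with 95% Clopper-Pearson intervals. *Rps27l* exceeds 50% in both libraries of acinar cluster 2 alone, *Rpl36al* is highest in β-cells, and *Rpl22l1* spans the narrowest range in the classes with over 50 cells in each library.

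Core genes also took part. Acinar cluster 2 was the highest class for *Rplp1*, a protein of the stalk that recruits elongation factors (4.41%, which was 2.95 times the share in δ-cells, the lowest class), for *Rpl41*, which encodes the shortest ribosomal protein (3.26%, against 0.979% in B cells), and for *Rpl32* (3.19%, against 1.39% in pericytes). *Rpl10*, which is placed late in the assembly of the large subunit, was highest in δ-cells (2.43%) and β-cells (2.40%) and lowest in B cells (0.992%). *Rpl39*, whose product lines the exit tunnel, ran from 1.23% in B cells to 0.533% in α-cells. The stalk proteins *Rplp0* and *Rplp2*, the partners of *Rplp1*, varied by 1.52 and 1.41 times, and *Rpsa* by 1.92 times. For 9 of the 10 most variable genes the ratio at the same pair of classes was 2.07 to 9.75 in the vehicle library and 1.90 to 6.14 in the FAKi library.

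The FAKi library was then set against the vehicle library in the 10 classes with at least 50 cells in each. The ribosomal protein share was slightly higher in FAKi β-cells and α-cells and lower in the other 8 classes, and the acinar clusters had some of the lowest ratios. In acinar cluster 1, ductal cells, macrophages and pericytes the direction turned under alternatives given below. In β-cells the share was 3.12% for vehicle and 3.27% for FAKi, a ratio of 1.05 (1.04 to 1.05). In acinar cluster 1 it was 4.30% and 3.67%, a ratio of 0.854 (0.837 to 0.871). In acinar cluster 2 it was 4.58% and 3.92%, a ratio of 0.856 (0.846 to 0.865).

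The size of these differences was small beside the spread of single cells. The interquartile ranges of the 2 libraries overlapped in all 3 classes, as with 2.62% to 3.57% and 2.74% to 3.89% in β-cells. In the β-cells the ratio was 1.03, 1.06 and 1.09 in the deposited clusters 0, 1 and 10. In acinar cluster 1 insulin was 14.7% of the pooled UMIs of the vehicle and 23.4% of those of the FAKi cells, and with insulin left out of the total the shares were 5.04% and 4.79%. Without the 20 most abundant genes the ratio was 0.958 in acinar cluster 1 and 0.868 in acinar cluster 2. Only 4 vehicle and 13 FAKi cells of acinar cluster 1 had at least 1000 detected genes, and in those the ratio was 1.03.

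In the other classes the ratio ran from 0.837 (0.831 to 0.844) in fibroblasts, where the share was 15.1% for vehicle and 12.6% for FAKi, to 1.05 (1.04 to 1.05) in α-cells, where it was 9.21% and 9.67%. Insulin took 6.12% of the UMIs of vehicle and 12.5% of those of FAKi fibroblasts, without insulin in the total their shares were 16.1% and 14.4%, and without called doublets their ratio was 0.900. Endothelial cells had 0.899. Within their deposited clusters the ratio was 0.956 in cluster 3 and 1.03 in cluster 11, which held 172 vehicle and 40 FAKi cells. δ-cells (0.952), ductal cells (0.969), macrophages (0.980) and pericytes (0.979) lay within 5% of equality. In the deposited δ-cell clusters 6 and 8 the ratio was 0.989 and 0.925. In pericytes it was 0.896 under 5% mitochondrial counts, and 1.004 both without called doublets and without the 20 most abundant genes. In ductal cells under 5% mitochondrial counts it was 1.01. In macrophages it was 1.002 without the 20 most abundant genes and 1.07 as a mean over cells.

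Single genes followed the share of their class, and few went past a 1.5-fold ratio. In β-cells 1 of the 83 genes with at least 100 UMIs was past it, *Rpl26*, which was higher, while 4.31% of all genes tested were past it in either direction. In α-cells (background 4.76%), δ-cells (3.88%) and ductal cells (8.16%) none of 83 was past it. In acinar cluster 1 *Rpl26* (1.53) was past it upward and *Rps28* (0.617) and *Rpl23a* (0.610) downward, of 79 genes and beside 20% of all genes. In acinar cluster 2 *Rpl36a* (0.643) and *Rpl39* (0.638) were past it downward, of 79 and beside 11.7%.

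Of the other classes, endothelial cells had *Rpl35* (0.655) and *Rpl29* (0.652) lower (of 83, background 9.18%) and fibroblasts *Rps27* (0.650), *Rps21* (0.626), *Rpl29* (0.625) and *Rps28* (0.620) lower (of 82, background 16.5%). Macrophages had *Rpl26* higher and *Rpl29* (0.559) lower (of 80, background 17%), and pericytes *Rpl26* higher (of 80, background 13.2%). In every class the share past the fold was below that of all genes tested. The genes tested had as few as 100 UMIs, and the part of depth in this difference was not tested.

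The median log2 ratio over the set was 0.070 in β-cells, where 57 genes were above and 26 below a ratio of 1, and the median over all genes tested was -0.044. It was -0.25 in acinar cluster 1 (67 of 79 below 1) and -0.21 in acinar cluster 2 (72 of 79 below 1), where all genes tested had medians of -0.033 and 0.063. Without the 20 most abundant genes in the totals the median over the set was 0.12 in β-cells and -0.082 in acinar cluster 1.

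**Figure D4:**
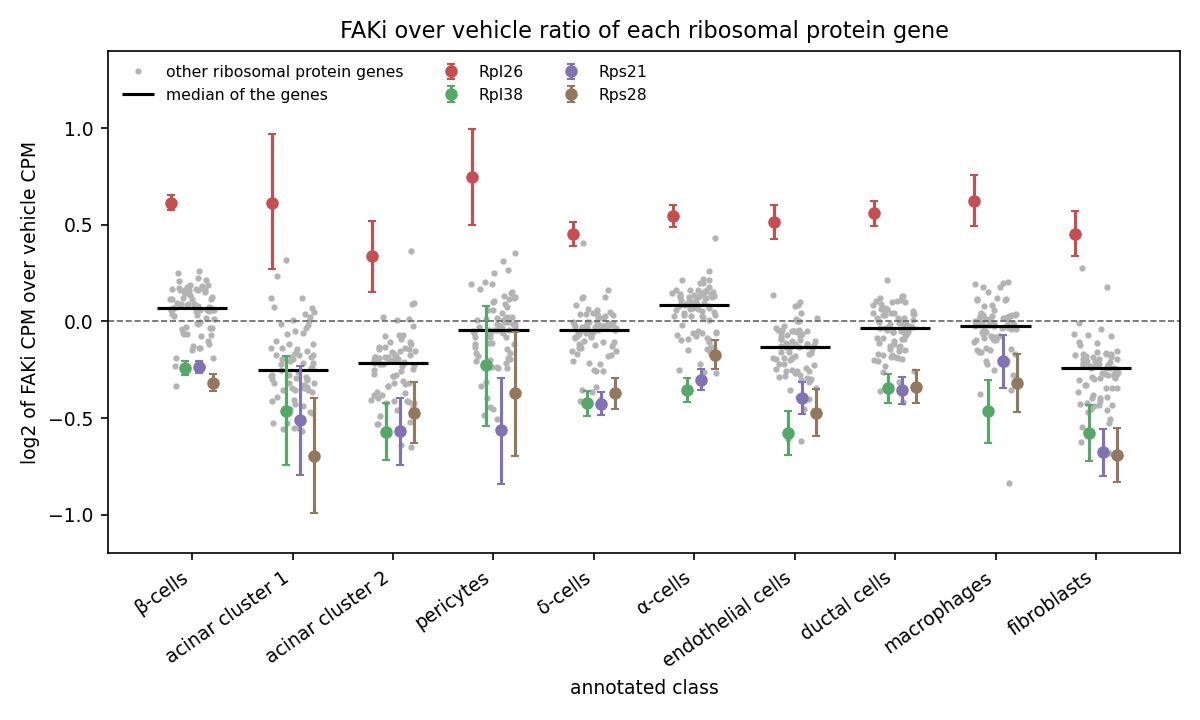
Log2 of the FAKi over vehicle ratio in CPM (y axis) of each ribosomal protein gene in the 10 classes compared (x axis). Gray points are single genes, black lines their median, and colored points *Rpl26*, *Rpl38*, *Rps21* and *Rps28* with 95% counting intervals. *Rpl26* lies above 0 in every class and the other named genes below it.

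*Rpl26*, a large-subunit protein beside the exit tunnel that is also known to bind the p53 messenger, was higher in the FAKi library in all 10 classes. It was at 253 CPM in vehicle and 387 CPM in FAKi β-cells, a ratio of 1.53 (1.49 to 1.57). In acinar cluster 1 it was at 261 and 399 CPM (ratio 1.53, 1.21 to 1.96) and in acinar cluster 2 at 316 and 399 CPM (1.26, 1.11 to 1.44). The part of depth in these ratios was not tested.

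The remaining ratios of *Rpl26* were 1.46 in α-cells, 1.37 in δ-cells, 1.47 in ductal cells, 1.43 in endothelial cells, 1.37 in fibroblasts, 1.54 in macrophages and 1.68 in pericytes. It had the highest ratio of the set in 9 of the 10 classes, and the second highest in acinar cluster 2 after *Rps27l*. Of the 280 genes with at least 100 UMIs in every class, 16 (5.71%) were higher in the FAKi library in all 10 classes, and *Rpl26* was the only one of the set's 79 among them. By its lowest ratio (1.26) it came second of the 280, after *AY036118* (1.60) and before the heat shock gene *Hspa1b* (1.23). Abundant secretory messengers that occur in every class were also among the 16, such as *Iapp*, *Try5* and *Ctrc*.

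Lower in all 10 classes were 23 of the 280 genes (8.21%), and 17 of the 23 belonged to the set of 79. The other 6 were *Gm10076* (0.426 to 0.705), *Eef1a1* and the mitochondrially encoded *mt-Co1*, *mt-Co3*, *mt-Nd1* (0.661 to 0.968) and *mt-Nd3* (0.589 to 0.896), of 10 mitochondrially encoded genes among the 280. The median mitochondrial share of the cells was 4.06% in vehicle and 3.92% in FAKi β-cells, 4.03% and 4.57% in acinar cluster 1 and 1.04% and 0.855% in acinar cluster 2, and the part of RNA quality in these ratios was not tested. *Rpl38*, known for its part in the translation of Hox messengers, was at 385 CPM in vehicle and 326 CPM in FAKi β-cells (ratio 0.845, 0.825 to 0.866), at 504 and 366 CPM in acinar cluster 1 (0.726) and at 667 and 449 CPM in acinar cluster 2 (0.673). Its ratio ran from 0.671 to 0.854 over the 10 classes, and its interval included 1 in pericytes alone. *Rps21*, a small-subunit protein, was at 456 and 388 CPM in β-cells (0.850, 0.831 to 0.869), and its ratio ran from 0.626 to 0.867.

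Other genes of both subunits were lower as well. *Rps28* had ratios from 0.617 to 0.888, *Rps29* from 0.704 to 0.902 and *Rpl39* from 0.638 to 0.917, with each interval below 1 in all 10 classes. *Rplp0* was also lower in all 10 classes (0.732 to 0.956), while *Rplp1* (0.832 to 1.15), *Rplp2* (0.745 to 1.06) and *Rpsa* (0.817 to 1.08) were lower in 7.

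Several genes recurred at the ends of the range. In β-cells *Rpl30* (1.20) and *Rpl23* (1.19) followed *Rpl26*, and *Rpl29* (0.794) and *Rps28* (0.803) were lowest before *Rpl38*. For acinar cluster 1 *Rpl9* (1.25) and *Rpl24* (1.18) followed *Rpl26*, and *Rpl39* (0.675) was the third lowest. In acinar cluster 2 *Rps27l* (1.29) and *Rpl26* were followed by *Rpl18* (1.07), and *Rpl38* was the third lowest.

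Among the other endocrine cells *Rps19bp1* came next to *Rpl26*. In α-cells *Rps19bp1* (1.35) and *Rps23* (1.20) followed *Rpl26*, and the lowest were *Rpl38* (0.782), *Rps21* (0.812) and *Rpl29* (0.832). In δ-cells *Rps19bp1* (1.32) followed it, and *Rps21* and *Rpl38* were lowest, both at 0.745, with *Rpl29* at 0.751. *Rps19bp1*, counted at no more than 28.1 CPM in these classes, had intervals that came close to 1 (lower bounds 1.03 and 1.02).

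Duct, stromal and vessel cells shared some of these names. *Rpl7l1* was next to *Rpl26* in endothelial cells (1.10) and in fibroblasts (1.21) with intervals that included 1, and *Rpl30* was next in pericytes (1.28). In macrophages *Rpl32* (1.15) and *Rps18* (1.15) followed *Rpl26*. The lowest ratios were those of *Rps27* in ductal cells (0.750), *Rpl29* in endothelial cells and macrophages, *Rps28* in fibroblasts and *Rps21* in pericytes (0.678).

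To set aside the share of the whole set, each gene was also expressed as a part of the ribosomal protein UMIs of its class. *Rpl26* was then higher in all 10 classes, by a mean log2 shift of 0.64 (range 0.48 to 0.84), and 8 further genes were higher in all of them, among them *Rpl30* (0.18), *Rpl13* (0.13) and *Rpl32* (0.13). *Rpl38*, *Rps21* and *Rps28* were lower by a mean of -0.33 each, *Rpl39* by -0.28 and *Rps29* by -0.27, and 12 genes were lower in all 10 classes. The classes share the 2 libraries, so 10 classes with 1 direction are not 10 replicates.

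Most genes with a short coding sequence lost share. Of the 10 genes under 300 coding bases, a limit chosen after the values were seen, 9 had a mean shift below 0 and the median shift was -0.26. The exception was *Rps27l* at 0.075, which has the same coding length as *Rps27* at -0.26. Of the 69 longer genes 27 were below 0 and the median was 0.022. Across all 79 genes the relation with coding length was weak (Spearman rho 0.165, and 0.018 to 0.361 in single classes). Some long genes lost share as well, such as *Rpl4* (1260 bases, -0.13) and *Rplp0* (954 bases, -0.17), and others such as *Rpl8* (774 bases, 0.092) gained. With transcript length rho was 0.067. Genes are not independent replicates.

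**Figure D5:**
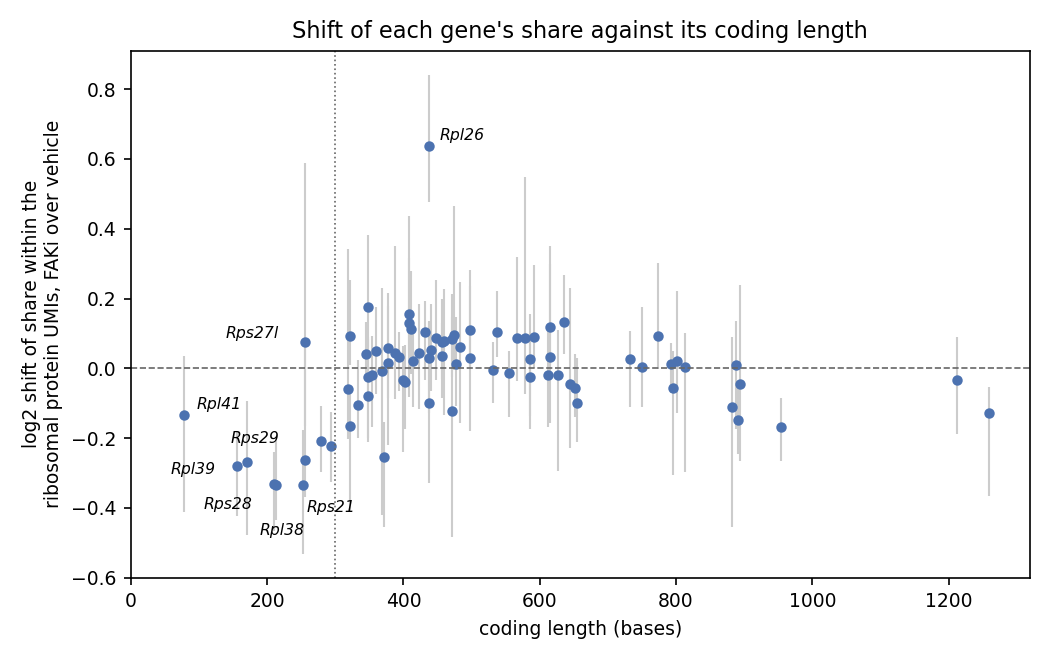
Mean log2 shift of each gene's share within the ribosomal protein UMIs, FAKi over vehicle (y axis, gray lines from the lowest to the highest of 10 classes), against its coding length in bases (x axis, dotted line at 300). *Rpl26* lies highest at 0.64, and the genes left of the dotted line lie below 0 but for *Rps27l*.

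The paralog shares moved as well. *Rpl36al* gained on *Rpl36a* in all 10 classes, by 1.81 to 8.96 percentage points, *Rps27l* on *Rps27* in 9 of them, and *Rps27rt*, whose counts are uncertain, in all 10, by 0.219 to 3.31 points. In CPM *Rpl36a* and *Rps27* were lower in the FAKi library in all 10 classes, while *Rpl36al* and *Rps27l* were each higher in 5 of the 10. The largest gain of *Rps27l* was in acinar cluster 2 (13.2 points), where *Rps27l* was at 219.6 CPM for vehicle and 283 CPM for FAKi (ratio 1.29, the only class with an interval above 1) and *Rps27* at 138 and 96.2 CPM. The exception was acinar cluster 1, at -4.30 points. *Rpl22l1* gained in 6 of 10.

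Genes outside the set that belong to the same machinery were taken from lists. The summed CPM of 16 elongation factors and other TOP messengers stood with the ribosomal protein share over the 12 vehicle classes (Spearman rho 0.965, with the same libraries and totals), from 31935 CPM in B cells to 4696 CPM in β-cells. In FAKi β-cells 8 of the 16 elongation factors and other TOP messengers were above a ratio of 1, with a median of 1.00. There 1 (*Eef1a2*, 1.86 and 1.02 CPM) was past the fold downward and none upward, beside 4.31% of all genes tested. *Naca* had the highest ratio in β-cells (1.14). Above 1 were 10 of 16 in α-cells (median 1.03), 2 of 9 in acinar cluster 1 (0.822), 3 of 14 in acinar cluster 2 (0.910), 1 of 15 in endothelial cells (0.826) and 0 of 15 in fibroblasts (0.820). *Eef1a1*, which brings aminoacyl-tRNA to the ribosome, was lower in all 10 classes, at 1197 and 1085 CPM in β-cells (0.907) and 1405 and 1057 CPM in acinar cluster 1 (0.752).

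*Fau* encodes a ribosomal protein fused to a relative of ubiquitin and carries another symbol. It was at 449.8 CPM in vehicle and 477 CPM in FAKi β-cells (ratio 1.06). For 20 ribosome biogenesis genes (nucleolar proteins and subunits of RNA polymerase I) none was past the fold in β-cells (background 4.31%), where 8 were above a ratio of 1, with *Polr1a* highest (1.20) and *Pes1* lowest (0.745). Of the 6 genes that link growth signals to translation, 2 were above 1 in β-cells, and *Mtor* (1.09) and *Larp1* (0.911) had the highest and the lowest ratio.

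The mitochondrial ribosome is built from a separate set of nuclear genes. Of its 78 genes, 58 were above a ratio of 1 in β-cells, with a median of 1.07, and in α-cells 57 of 74. All genes tested had a median log2 ratio of -0.044 in β-cells and 0.033 in α-cells. The count above 1 was 57 of 77 in ductal cells, 48 of 74 in δ-cells, 42 of 69 in endothelial cells, 15 of 22 in macrophages and 5 of 7 in pericytes. In fibroblasts it was 20 of 49 (median 0.928) and in acinar cluster 2 it was 0 of 3. None of the 78 was past the fold in β-cells, beside 4.31% of all genes tested. In α-cells 2 were past it upward and 1 downward, of 74 and beside 4.76%.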

How the data were processed

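The authors isolated and handpicked the islets, made droplet libraries of 3′ messenger ends and counted UMIs with Cell Ranger on mm10, used Seurat 3.1 to filter cells on their gene number and mitochondrial RNA, and annotated clusters after normalization and integration, per the labels and the study's methods. The deposited counts are raw UMI counts per gene and cell with no normalization. Each cell's percent of mitochondrial counts, used in an alternative, is as deposited by the authors. Cell types and clusters are the authors'. The names "Control" and "Faki" in the annotation were read as the vehicle and the FAKi library.

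UMIs were summed per annotated class and library. Shares carry Clopper-Pearson intervals and ratios exact conditional binomial intervals (95%), which cover counting error only, since UMIs of cells from pooled mice are not replicates. CPM scales a count to the total UMIs of its class and library. Genes with at least 100 UMIs in both libraries of a class together were compared, past the fold meant a ratio over 1.5 or under its inverse, and log2 medians carry a pseudocount of 1 CPM. Classes needed 50 cells in each library. Named genes were the 5 highest and 5 lowest core genes, the 3 highest and 3 lowest ratios of a described comparison, the 10 most variable genes, all paralogs, the genes named in the rule and extremes of the lists. *Rps28*, *Rps29* and *Rpl39* outside those places, the genes of the comparison over all 10 classes, and the genes under 300 coding bases were chosen after their values were seen. The members and lists were chosen with earlier results of these data known. Loci and coding sequences are from GENCODE on GRCm38, the assembly also called mm10, and starts from RefSeq on GRCm38.p6, where 64 of 84 genes had an entry. All 84 matched GENCODE by symbol. Some genes that these rules select are not reported here. Doublets were called per library with scrublet. Intervals were tested on simulated counts. Alternatives were other denominators, cell filters, pseudocounts and count minimums, the mean over cells, and each deposited cluster. Versions were scanpy 1.11.5, pandas 2.3.3, matplotlib 3.10.9, numpy 2.4.6, scipy 1.17.1 and python 3.11.15.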

Additional observations from a re-analysis of the deposited data

Results flagged for a closer look

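The ribosomal protein share of β-cells and of the acinar clusters differed between the libraries in opposite directions. The FAKi to vehicle ratio was 1.05 in β-cells, 0.854 in acinar cluster 1 and 0.856 in acinar cluster 2. With 1 library per condition the difference between these classes was not tested. In acinar cluster 1 the insulin share of the UMIs was also higher in the FAKi library (23.4% against 14.7%). With insulin left out of the total the shares there were 5.04% for vehicle and 4.79% for FAKi, a smaller gap.

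The 3 pseudogenes left out of the set carried UMIs: 1382 for *Rpl10-ps3*, 293 for *Rpl36a-ps1* and 1414 for *Rpl9-ps6*. These were 1.02%, 1.11% and 1.01% of the UMIs of *Rpl10*, *Rpl36a* and *Rpl9*. Whether the reads come from the pseudogenes or from their parent genes was not tested.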

How the results depend on the processing

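The ratio of the ribosomal protein share of acinar cluster 1 (0.854) was 0.834 in cells under 5% mitochondrial counts, 0.958 without the 20 most abundant genes, 0.829 as a mean over cells, and reversed to 1.03 when at least 1000 genes per cell were required, which leaves 4 vehicle and 13 FAKi cells. That of acinar cluster 2 (0.856) was 0.888 in cells with at least 1000 genes, 0.868 without the 20 genes and 0.776 as a mean over cells. That of β-cells (1.05) was 1.02 in cells under 5% mitochondrial counts, 1.08 without the 20 genes, 1.06 as a mean over cells, and 1.03, 1.06 and 1.09 in clusters 0, 1 and 10. The ratio of B cells to β-cells (8.53) was 9.05 without doublets, 7.68 in cells under 5% mitochondrial counts, 3.37 without the 20 genes, 8.68 without mitochondrially encoded genes, 8.66 for core genes alone and 8.46 as a mean over cells. Median log2 ratios without the 20 genes were 0.12 in β-cells, -0.082 in acinar cluster 1 and -0.20 in acinar cluster 2. The *Rps27l* ratio of acinar cluster 2 to B cells (10.7) was 6.14 in the FAKi library alone, which has 9 B cells. Other ratios that changed direction were those of ductal cells under 5% mitochondrial counts (1.01), endothelial cluster 11 (1.03), macrophages without the 20 genes (1.00) or as a mean over cells (1.07), and pericytes without doublets (1.00) or without the 20 genes (1.00). The lowest *Rpl26* ratio kept its direction, at 1.25 to 1.39, under each alternative run. The cause of these changes was not tested. Leaving out a replicate was not possible with 1 library per condition. No paired analysis was possible because the numbered samples are lanes of the same library, cells carry no lane, and no result comes from a test.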
